A study of Schizosaccharomyces pombe with 2 samples.

Results

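Haem synthesis in fission yeast (Schizosaccharomyces pombe) was followed through 9 genes of the 5057 measured, chosen by name as the enzymes of the pathway and taken in pathway order: hem1, hem2, hem3, hem4, hem12, hem13, hem14, hem15 and cox15. Each had 1 probe with 3 spots per array, all 9 probes passed the filter on dim signals, and all 9 were well above background in both strains on both arrays. In the RefSeq gene table, cox15 is an older name of etp1 (SPAC22E12.10c). The name ups1, given for the fourth enzyme, is listed there as an older name of hem4 (SPAC31G5.08), while the symbol ups1 itself now belongs to another gene, SPAP8A3.10. In budding yeast the name Ups1 belongs to a mitochondrial lipid transfer protein. The pathway gene was therefore taken as hem4, and SPAP8A3.10, which is no member, is described beside it.

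Cells lacking mga2 (strain ESY173, mga2Δ below) were compared with control cells (strain KGY425, WT below), both grown in rich YES medium and kept for 1.5 h without oxygen in an anaerobic chamber. In the labels the control is wild type, but the design text of the series describes an sre1 deletion in both strains, sre1 being the gene of the principal sterol-responsive factor. No cells with oxygen were analysed here. RNA of 2 biological replicate pairs went to 2 arrays with the dyes swapped: mga2Δ carried Cy5 on array 1 and Cy3 on array 2. The labels do not say how many independent clones each strain stands for.

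Mga2 is known as an activator of genes of lipid synthesis. Haem is an iron porphyrin that serves as cofactor of cytochromes, catalase and some of the sterol and fatty acid enzymes that use oxygen. Its synthesis starts and ends in the mitochondrion, with the middle steps in the cytosol: Hem1 joins glycine and succinyl-CoA, the next 4 enzymes build and trim the tetrapyrrole ring, Hem13 and Hem14 oxidise the porphyrin, and Hem15 inserts iron. The reactions of Hem13 and Hem14 use molecular oxygen.

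The 2 arrays lay on 1 slide and were scanned together. In each channel 96.8% to 98.6% of probes stood well above background, and no gene spot was saturated. With 2 arrays, means and SDs rest on 2 values, and the test adds a spread shared over all genes to the 1 residual degree of freedom that each gene has; the number of arrays limits the precision. Where nothing more is said, values are log2 ratios of mga2Δ over WT after loess normalization, relative to the bulk of genes on the array, and levels are log2 normalized channel intensities. Signal of mga2 exceeded background in WT and not in mga2Δ, and the transcript was at least 85.0-fold lower in mga2Δ (limma adjusted p = 1.26e-05), a bound for which the mga2Δ level was set to that of the dimmest probe still well above background, or to the measured level where higher. For sre1 neither strain exceeded background on either array, at levels of 5.81 and 5.92 in mga2Δ and 6.04 and 6.13 in WT, which leaves undecided whether sre1 is missing.

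Of the 9 haem synthesis genes, 3 were lowered in mga2Δ and 6 did not pass the test. Lowered were hem1, which makes the first precursor, hem3, which joins porphobilinogen units into a linear tetrapyrrole, and hem14, protoporphyrinogen oxidase. No member was raised, and 0 were raised at an unadjusted p under 0.05. The test was limma's moderated test of the ratio against 0, adjusted by Benjamini-Hochberg over 4964 genes, and at 0.05 it called 10.9% of all genes lowered and 18.4% raised. The median of the 9 mean ratios was −0.22, against 0.0041 over all genes tested. The share of all genes called lowered differed between settings: it was 22.9% in the authors' deposited ratios, 5.1% with spike-in centring after loess and 0.524% with median centring in place of loess. The counts of lowered haem synthesis genes in the same 3 settings were 5, 2 and 1. These settings differ in more than the centring, since the normalization behind the deposited ratios is unknown here and the weight of the shared spread was estimated anew in each. When the shared spread was given 2.81 prior degrees of freedom and not the estimated 5.62, so that it counted for less, 3.55% of all genes and 2 members were called lowered.

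**Figure D1:**
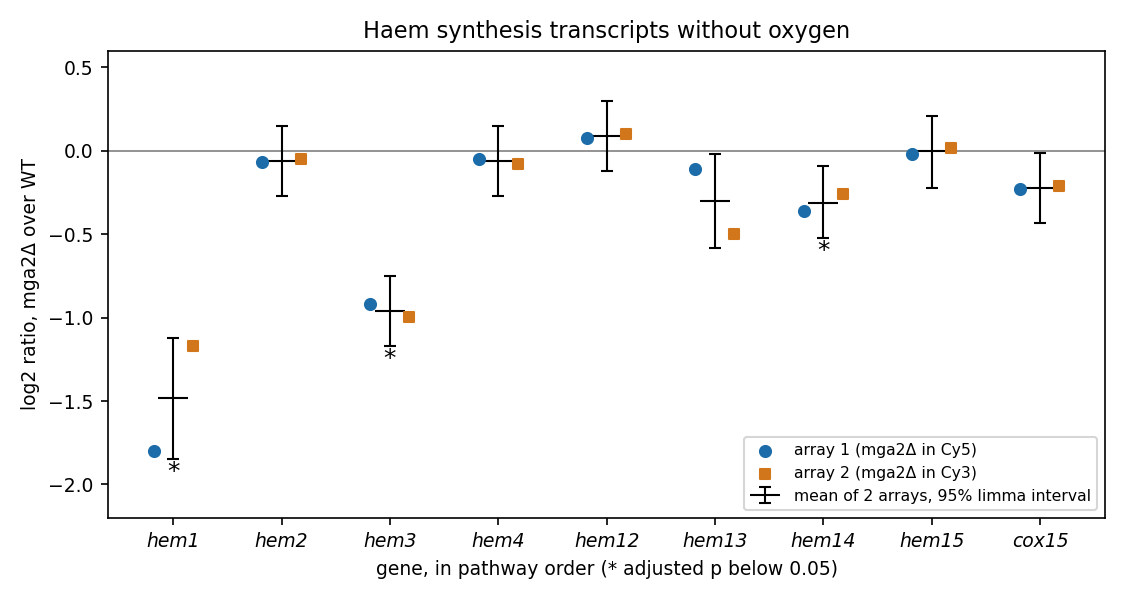
The plot gives the log2 ratio of mga2Δ over WT (vertical axis) of the 9 genes in pathway order, with a circle for array 1, a square for array 2, and a bar and whiskers for the mean of 2 arrays with its 95% limma interval. Stars mark an adjusted p below 0.05, reached by hem1 at −1.48, hem3 at −0.96 and hem14 at −0.31, while hem2, hem4, hem12 and hem15 lie close to 0.

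The hem1 gene (SPAC2F3.09) encodes 5-aminolevulinate synthase, the enzyme of the committed step. Its level was 13.56 and 13.70 in mga2Δ, against 15.36 and 14.86 in WT, each for array 1 and array 2. Both mga2Δ levels lay below both WT levels. The log2 ratio was −1.80 on array 1 and −1.17 on array 2, with a mean of −1.48 ± 0.45 (SD, n = 2 arrays, limma adjusted p = 0.000774). In linear terms hem1 stood at 35.8% of WT, with a 95% interval of 27.8% to 46.0%, and only 15 of the 4964 tested genes had a lower mean ratio.

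The gap of 0.63 between the arrays was large for a gene of these arrays. The median gap over all tested genes was 0.14, and 98.1% of genes had a gap no larger than that of hem1. Spots of 1 array agreed far better than the arrays did: the 3 spots lay between −1.84 and −1.76 on array 1 and between −1.23 and −1.10 on array 2. With median centring in place of loess, the hem1 ratios were −1.77 and −1.98, with a gap of 0.22 and a mean of −1.88, so the order of the arrays turned. The hem1 call held in all 9 other ways of processing, with means between −1.88 and −1.39.

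The hem3 gene (SPAC24B11.13) encodes hydroxymethylbilane synthase, also called porphobilinogen deaminase. Its level was 11.67 and 11.48 in mga2Δ, against 12.59 and 12.48 in WT. The strains did not overlap, and the arrays gave nearly the same difference. The log2 ratio was −0.92 on array 1 and −0.998 on array 2, with a mean of −0.96 ± 0.0535 (SD, n = 2 arrays, limma adjusted p = 0.000504). That placed hem3 at 51.4% of WT, with a 95% interval of 44.3% to 59.6%, and 32 tested genes had a lower mean ratio. The call was lost with median centring, where the ratio was as large (−1.03, limma adjusted p = 0.0626), and held in the other 8 settings.

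Of the members, 1 was at least 2-fold lower in mga2Δ on both arrays, hem1, as were 0.524% of all tested genes. The 95% intervals of hem1 and of hem3 overlapped those of none of the other 7 members. The difference between genes was not tested beyond these intervals.

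The enzymes that flank hem3 gave small ratios. The hem2 gene (SPAC1805.06c), porphobilinogen synthase, which condenses a pair of aminolevulinate molecules, had levels of 12.14 and 12.23 in mga2Δ and 12.21 and 12.28 in WT. The ranges of the strains overlapped. Its log2 ratio of −0.0585 ± 0.0137 (SD, n = 2 arrays) did not pass (limma adjusted p = 0.657), and the 95% interval ran from 82.9% to 111% of WT. The hem4 gene, uroporphyrinogen-III synthase, which closes the ring, had levels of 11.75 and 11.64 in mga2Δ and 11.80 and 11.72 in WT. Its log2 ratio of −0.0632 ± 0.0194 did not pass either (limma adjusted p = 0.631), with an interval of 82.7% to 111% of WT. One of the 3 hem4 spots on array 1 was an outlier and was left out. The low ends of the hem2 and hem4 intervals lay above the high ends of those of hem1 and hem3.

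The gene that now bears the symbol ups1, SPAP8A3.10, gave a log2 ratio of −0.32 on array 1 and of −0.0315 on array 2 (mean −0.18 ± 0.20, limma adjusted p = 0.251). Counting it in place of hem4 left the number of lowered genes at 3 and the median at −0.22.

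Uroporphyrinogen decarboxylase, hem12 (SPCC4B3.05c), trims the side chains of the closed ring, the last step before the oxygen-dependent part. Its levels were 13.20 and 13.22 in mga2Δ and 13.12 and 13.13 in WT. It was the only member with a positive ratio on both arrays, 0.0777 and 0.10. The mean of 0.0869 ± 0.013 did not pass (limma adjusted p = 0.495), and it turned negative with median centring (−0.14) and the authors' deposited ratios (−0.0491). In the deposited ratios it still lay above the median of all genes tested, which was −0.0952 there.

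**Figure D2:**
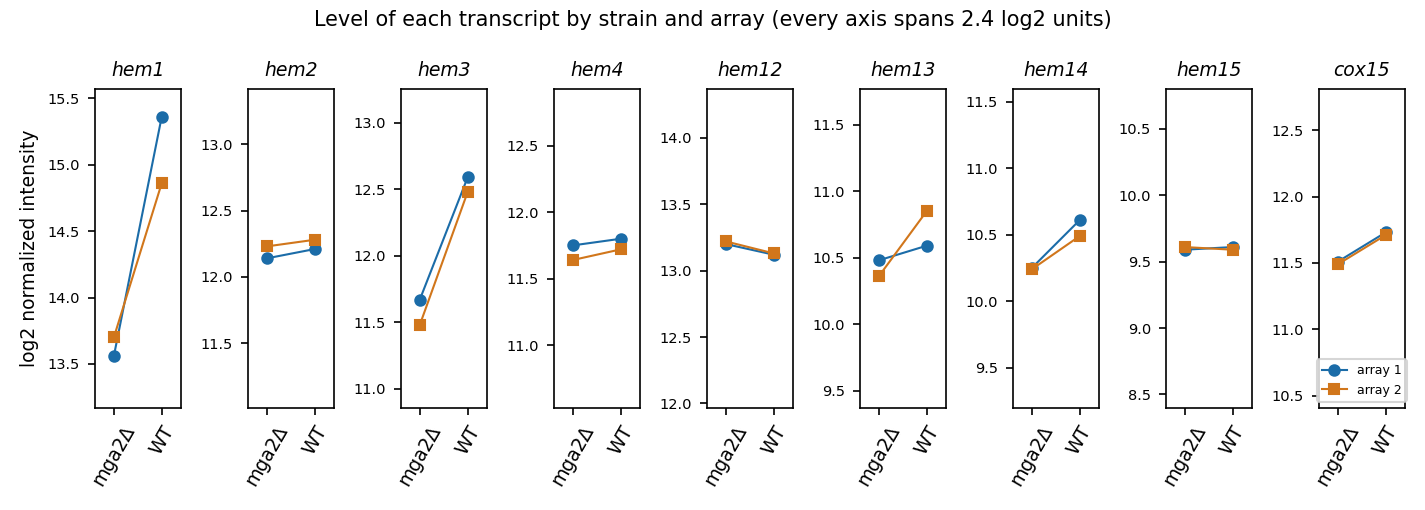
Each panel gives the log2 normalized intensity (vertical axis) of 1 gene in mga2Δ (left) and WT (right), with a line and circles for array 1 and squares for array 2, and all panels span the same number of log2 units around their own centre. The lines climb steeply to WT for hem1 and hem3, and less so for hem14, cox15 and hem13 on array 2. They are nearly level for hem2, hem4, hem12, hem15 and hem13 on array 1.

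The genes of the oxygen-using steps, hem13 and hem14, had smaller ratios than hem1 and hem3. Coproporphyrinogen III oxidase, hem13 (SPAC222.11), is known in fission yeast as a gene that the factor Sre1 activates when oxygen is low. Its level was 10.48 and 10.36 in mga2Δ, against 10.59 and 10.85 in WT. Both mga2Δ levels lay below both WT levels, but the arrays differed in size, the log2 ratio being −0.11 on array 1 and −0.50 on array 2. The gap of 0.39 was among the wider ones, since 91.6% of genes had a gap no larger. The 3 spots of array 1 lay between −0.16 and −0.0543 and those of array 2 between −0.53 and −0.47, so the spots did not overlap between arrays. The mean of −0.30 ± 0.28 did not pass (limma adjusted p = 0.0985). It passed in 3 of the 9 other settings and ranged from −0.41 to −0.21 over them.

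Protoporphyrinogen oxidase, hem14 (SPAC1F5.07c), had levels of 10.25 and 10.24 in mga2Δ, against 10.61 and 10.49 in WT. The strains did not overlap. Its log2 ratios were −0.36 and −0.26, with a mean of −0.31 ± 0.0726 (SD, n = 2 arrays), and it passed narrowly (limma adjusted p = 0.0446). The interval ran from 69.5% to 93.9% of WT. Its mean was nearly equal to that of hem13, but its arrays lay closer together, and 542 of the tested genes had a lower mean ratio. The hem14 call was lost with median centring (limma adjusted p = 0.286) and 2.81 prior degrees of freedom (limma adjusted p = 0.0968), at the same mean ratio of −0.31, and with spike-in centring (−0.21, limma adjusted p = 0.271).

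Ferrochelatase, hem15 (SPCC320.09), which inserts iron into protoporphyrin, had levels of 9.59 and 9.61 in mga2Δ and 9.61 and 9.59 in WT. The ratio was −0.0215 on array 1 and 0.0144 on array 2, the only member whose sign differed between the arrays. The mean of −0.0036 ± 0.0254 did not pass (limma adjusted p = 0.983), and the interval ran from 86.1% to 116% of WT. The cox15 gene encodes the enzyme that turns haem O into haem A for cytochrome oxidase, fused in fission yeast to a mitochondrial ferredoxin. It had levels of 11.51 and 11.49 in mga2Δ, against 11.73 and 11.71 in WT. Its log2 ratios of −0.23 and −0.21 were close to each other, but the mean of −0.22 ± 0.0105 did not pass (limma adjusted p = 0.106). The cox15 ratio passed with the authors' deposited ratios (−0.31, limma adjusted p = 0.0459) and in no other setting. In the deposited ratios the median of all genes tested was −0.0952, and 22.9% of all genes were called lowered.

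Across the 9 genes, 7 had a ratio below 0 on both arrays, as had 37.6% of all tested genes. Both mga2Δ levels lay below both WT levels in 5 of them (hem1, hem3, hem13, hem14 and cox15), against 32.8% of all tested genes. The gap between arrays was at or below the median gap of all genes in 7 members, the exceptions being hem1 and hem13. The spots of a probe on 1 array, 2 for hem4 on array 1 and 3 otherwise, spanned at most 0.13 on the log2 scale in every member.

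**Figure D3:**
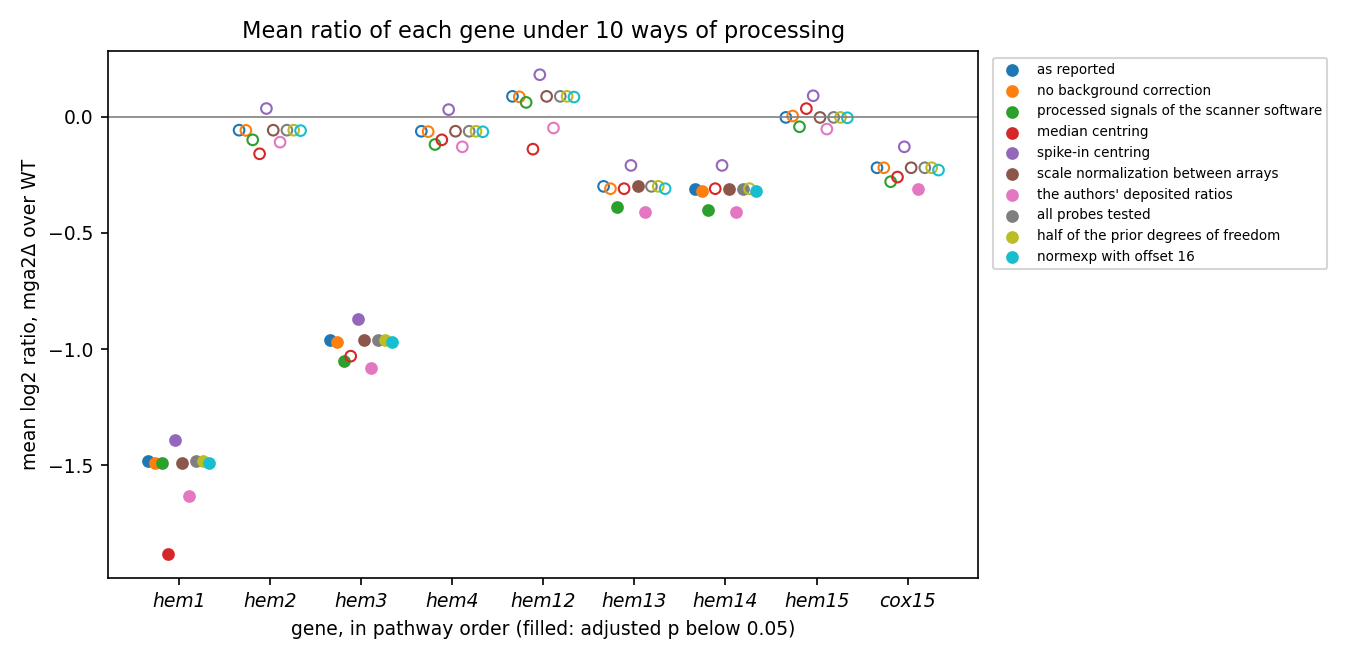
For each of the 9 genes in pathway order, the points give the mean log2 ratio of mga2Δ over WT (vertical axis) under 10 ways of processing, filled where the adjusted p was below 0.05. The hem1 and hem3 points lie well below 0 throughout, from −1.88 to −1.39 and from −1.08 to −0.87, and those of hem2, hem4, hem12 and hem15 fall on both sides of 0.

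By their systematic names 7 of the 9 genes lie on chromosome I and hem12 and hem15 on chromosome III. In the RefSeq annotation hem1 overlaps SPAC2F3.18c, whose ratio of −0.30 ± 0.18 did not pass (limma adjusted p = 0.0647), and hem3 overlaps SPAC806.02c, at 0.13 ± 0.0561 (limma adjusted p = 0.308). Likewise hem13 overlaps SPAC222.17, at 0.14 ± 0.01 (limma adjusted p = 0.284), and hem14 overlaps lsh1, at −0.25 ± 0.10 (limma adjusted p = 0.084). The gene spk1, which overlaps hem4, was raised (0.39, limma adjusted p = 0.0189). Whether a probe lies in such an overlap is not stated in the files. Of the other tested neighbours, 1 was called, SPCC4B3.06c beside hem12, which was raised (0.62, limma adjusted p = 0.00393).

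The substrate supply list held 10 genes that make, carry or use glycine or succinyl-CoA, the substrates of Hem1. Of these, 5 were lowered, beside 10.9% of all genes called lowered, and none was raised (0 at an unadjusted p under 0.05). The median ratio of the 10 genes was −0.28. The serine hydroxymethyltransferase gene shm2, whose product makes glycine from serine, had ratios of −0.65 and −0.44 (mean −0.55 ± 0.15, limma adjusted p = 0.00794, n = 2 arrays). The glycine decarboxylase gene gcv2, of the complex that breaks glycine down, had ratios of −0.39 and −0.52 (mean −0.45 ± 0.0898, limma adjusted p = 0.0129). The succinyl-CoA ligase gene lsc2 had ratios of −0.36 and −0.50 (mean −0.43 ± 0.10, limma adjusted p = 0.0156). The other two lowered members, named after their values were seen, were kgd2 of the oxoglutarate dehydrogenase complex, which makes succinyl-CoA (−0.43), and gcv3 (−0.30). The lowered genes include both makers and users of glycine and of succinyl-CoA. The gene of the mitochondrial glycine carrier, hem25, stood at −0.27 ± 0.0247 and did not pass (limma adjusted p = 0.0624). Partner genes of the lowered ones did not pass either. These were kgd1 beside kgd2 (0.11, limma adjusted p = 0.384) and lsc1 beside lsc2 (−0.0923, limma adjusted p = 0.501). The same held for gcv1 (−0.23, limma adjusted p = 0.135) and dld1 (0.0373, limma adjusted p = 0.813). The count of 5 was 2 with spike-in centring, 1 with 2.81 prior degrees of freedom and 0 with median centring (3 at an unadjusted p under 0.05 there), with list medians of −0.19, −0.28 and −0.33.

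Next came enzymes that draw on the pathway's intermediates or products. Of 4 genes of the haem O and sirohaem branches and of haem attachment, 1 was raised, beside 18.4% of all genes: SPCC1739.06c (met1), the uroporphyrinogen methyltransferase that opens the sirohaem branch, with ratios of 0.49 and 0.78 (mean 0.64 ± 0.20, limma adjusted p = 0.00584). This call was lost with median centring (0.46, limma adjusted p = 0.18). The haem O synthase gene cox10, which acts just before cox15, had a mean of 0.00058 ± 0.16 and did not pass (limma adjusted p = 0.998). Of 10 genes of mitochondrial iron transport and iron-sulphur assembly, 1 was lowered and 1 raised, close to the 10.9% and below the 18.4% of all genes, with a median of 0.0143. The mitochondrial iron carrier gene SPAC8C9.12c (mrs3) was lowered at −0.54 ± 0.26 (limma adjusted p = 0.0142), and isa2, of iron-sulphur cluster assembly, was raised at 0.39 ± 0.0224 (limma adjusted p = 0.0189). Neither passed with median centring, at ratios of −0.49 for SPAC8C9.12c and 0.38 for isa2, or with 2.81 prior degrees of freedom, at unchanged ratios.

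Of 3 genes of haem uptake and vacuolar haem, 2 were well above background in both strains, and 1 of these was raised, beside 18.4% of all genes. The surface haem receptor gene shu1 had levels of 11.20 and 12.90 in mga2Δ, against 6.47 and 6.06 in WT. Its ratios of 4.72 and 6.83 passed (limma adjusted p = 0.00017). The mean shu1 ratio of 5.78 was larger in other settings, up to 8.25 with the processed scanner signals, and its WT levels were near those of sre1, which did not exceed background. The gene abc3, of a vacuolar transporter linked to stored haem, did not pass (0.21 ± 0.39, limma adjusted p = 0.289). The transporter gene str3 entered the test only through mga2Δ, where it was high, and is not counted: its levels were 9.33 and 11.25 in mga2Δ, against 6.30 and 5.84 in WT, which was not well above background, and it was at least 17.2-fold higher in mga2Δ.

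Of 14 genes taken as those whose proteins bind haem or carry a haem domain, 3 were raised and 2 lowered, close to the 18.4% and 10.9% of all genes, with a median of −0.015. The gene counted among them as sdh4 (SPBP23A10.16) bears the symbol tim18 in the RefSeq gene table and did not pass (−0.22, limma adjusted p = 0.106). The largest called ratios were those of frp1, a ferric reductase (3.04 ± 1.91, limma adjusted p = 0.00747), ole1, the fatty acid desaturase with a cytochrome b5 domain (−1.60 ± 0.0541, limma adjusted p = 5.92e-05), and ctt1, catalase (1.32 ± 0.10, limma adjusted p = 0.000147). None of the 14 passed with median centring (2 raised and 3 lowered at an unadjusted p under 0.05), where frp1 stood at 3.02, ole1 at −2.16 and ctt1 at 1.12. With 2.81 prior degrees of freedom 1 was raised (ctt1) and 1 lowered (ole1). The frp1 call was lost there (limma adjusted p = 0.0693), its ratios being 1.69 on array 1 and 4.39 on array 2. The cytochrome P450 genes erg11 and erg5 of ergosterol synthesis had means of −0.20 ± 0.14 and −0.0011 ± 0.27 and did not pass (limma adjusted p = 0.162 and 0.996), and neither did cyc1, cytochrome c (0.29 ± 0.50, limma adjusted p = 0.234).

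**Figure D4:**
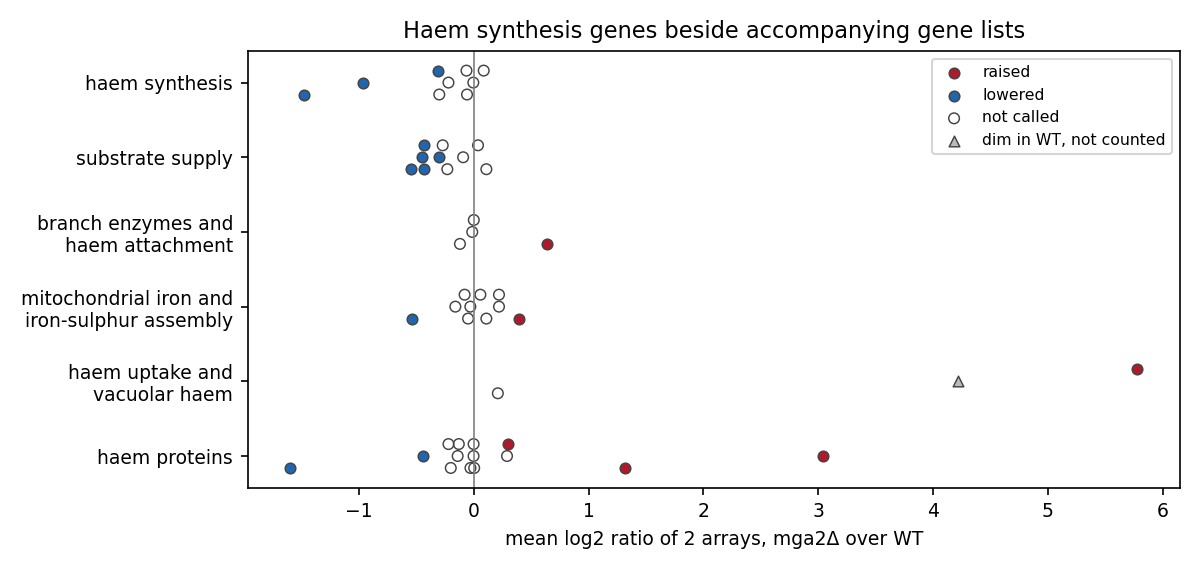
Each point gives the mean log2 ratio over 2 arrays of mga2Δ over WT (horizontal axis) of 1 gene, by gene list (rows), red where raised, blue where lowered, open where not called and a grey triangle where dim in WT. The haem synthesis and substrate supply rows have called genes below 0 and none above, and the haem uptake row has shu1 at 5.78 and the triangle of str3 at its fitted ratio of 4.22.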

How the data were processed

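Median spot and background intensity values came from Agilent Feature Extraction 10.5.1.1 (protocol GE2_105_Dec08), per the file headers, which also give signals corrected and dye-normalized by that software, the log10 ratio of Cy5 over Cy3 and other calls of 0 or 1 per spot. Per the labels, labelling started from 400 ng of total RNA and oligo-dT primers. The authors' deposited value table holds log2 ratios. Set against the scanner ratios (r = 0.987 on both arrays), they run as mga2Δ over WT, with medians of −0.078 and −0.115; their exact centring and normalization are not given in the sources used here.

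In limma 3.58.1 (R 4.3.3), normexp with an offset of 50 corrected the background and loess normalized each array, giving control and outlier spots no weight. Outlier spots were left out (3.57% and 3.36% of gene spots), spots of a probe averaged and array 2 turned in sign. A probe was tested if, on each array, 2 or more of the 3 spots were called well above background in either channel (4964 of 5057). Levels were taken after loess and Aquantile normalization. The mean ratio was tested against 0 with lmFit and eBayes (two-sided), and called at a Benjamini-Hochberg adjusted p of 0.05. The dye swap left no degree of freedom for a dye term. The steps were run on simulated spots whose gene spreads had the form that the test assumes. That run checked the code and not the calls on the real arrays. Tables and figures were made with Python 3.11.15, pandas 2.3.3 and matplotlib 3.10.9.

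A RefSeq gene table (assembly ASM294v3) gave names and neighbours, matching 5021 of 5057 genes by locus tag. The members, the accompanying lists and the alternatives were chosen with earlier results of these data known. All 9 members are named, and of each list up to 3 called genes with the largest ratio; others were named after their values were seen.

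The alternatives were no background correction, processed scanner signals, centring on the array median or on spike-ins, scale normalization between arrays, the deposited ratios, all probes, 2.81 prior degrees of freedom where 5.62 were estimated and each array alone. The nominal ratio of each spike-in was taken as the nearest of 1, 3 and 10 in either direction. Normexp with offset 16 and SPAP8A3.10 in place of hem4 were added after seeing the data.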

Additional observations from a re-analysis of the deposited data

How the results depend on the processing

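The count of 3 lowered haem synthesis genes lay between 2 and 4 in all settings but median centring, where only hem1 was called (1 gene), and the authors' deposited ratios, which called 5; the cause was not tested. The count of raised genes was 0 in every setting. The median ratio of −0.22 moved to −0.13 with spike-in centring and −0.31 with the deposited ratios, where the median of all genes tested moved alike, to 0.0971 and −0.0952, and lay between −0.21 and −0.11 with 1 array left out. The mga2 ratio stayed called in every setting with a test. Without array 1 or array 2, a single array is left and no test is possible. Members whose mean lay close to 0 changed sign. Those of hem2 (0.0346) and hem4 (0.0299) did so with spike-in centring, both below the median of all genes there. The sign of hem12 changed with median centring (−0.14) and the deposited ratios (−0.0491), in the latter above the median of all genes. That of hem15 changed with no background correction (0.0026), median centring (0.0342), spike-in centring (0.0895) and array 2 alone (0.0144, against −0.0215 on array 1 alone). No paired analysis was possible beyond the main test because that test, on the ratio within each array, is already the paired one. All 9 members were well above background, and the number of arrays limits the precision.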
